A study of Mus musculus with 6 samples.

Results

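The genes described here encode the enzymes that attach ubiquitin and remove it again. Members were chosen by symbol in the platform annotation: those that start with Ube2, Usp followed by a digit, Otud, Uchl or Josd, and the Uba genes of the same numbered series. The rule found 87 of 16593 genes with a symbol, read by 135 probes. They divide into 3 E1 activating enzymes, 27 E2 conjugating enzymes, 56 deubiquitinases and 1 gene, Usp6nl, that shares the prefix but encodes an activator of Rab GTPases. The deubiquitinases were grouped by symbol, and all their counts below include Usp39, whose protein lacks protease activity.

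The series profiled mouse thymocytes at the double-positive stage, which carries both CD4 and CD8, before selection. All 6 samples came from AND.Rag1-/-H-2d mice, which lack Rag1 and carry the transgenic AND T cell receptor on an H-2d background. For 7 h the cells were exposed to plate-bound I-Ek Ig dimers loaded with MCC (negative selection signals), gp250 (positive selection signals) or Hb (non-selecting), with 2 arrays per ligand. The labels give no ages and do not say whether the 2 arrays of a ligand came from separate mice or cultures, so the p-values reflect the spread among these arrays alone, and that spread could be technical.

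Ubiquitin is activated by an E1 enzyme, passed to an E2 and placed on a target with the help of an E3 ligase, while deubiquitinases cut it off or trim the chains. Depending on the chain that is built, the target is sent to the proteasome, moved within the cell or given a signalling role. Related modifiers such as NEDD8 and ISG15 have E1 and E2 enzymes and proteases of their own. In T cells these reactions set how long receptors, kinases and adaptors of the antigen receptor pathway last.

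Each array gave a background-subtracted intensity for 25697 probes, with means per array of 445 to 482 (gp250), 470 to 488 (Hb) and 582 to 613 (MCC), and between 10519 and 11603 probes were above background. The correlation between replicates of a ligand was r = 0.994 over tested probes. Precision is limited by having 2 arrays per ligand. Of 10 double-positive markers 9 had a named probe and 8 were tested. Cd8a was not above background, and 7 of the 8 fell with MCC against Hb, beside 28.8% of all 8253 tested genes. The summed intensity of the double-positive markers was 29548 to 29790 on the MCC arrays, 103069 to 103128 on the gp250 arrays and 103372 to 107523 on the Hb arrays. Cd3e was not called, with a log2 fold change of 0.22. Rag1, deleted in every group, still gave a signal, which fell by 3.66 ± 0.11 with MCC, and which part of the gene its probe reads was not analysed here. Of 27 markers of B, myeloid, erythroid, stromal and innate lymphoid cells, 21 had a probe. Of these, 12 were too dim to test, and 3 rose and 6 fell with MCC against Hb. Over all tested genes 26.2% rose and 28.8% fell. The summed intensity of the B cell markers was 358 to 388 on the MCC, 1466 to 1729 on the gp250 and 1601 to 1626 on the Hb arrays, and that of the myeloid and dendritic markers was 969 to 998, 581 to 598 and 618 to 630. For erythroid markers it was 2699 to 2744, 3076 to 3688 and 2964 to 3434, in the same order. For stromal markers it was 795 to 804, 1748 to 1952 and 1769 to 1972, and for innate lymphoid markers 2783 to 3121, 4031 to 4118 and 3777 to 3807, in the same order. The part of these shifts in the results below was not tested. A lower signal from fewer cells of a type and one from less RNA per cell cannot be told apart. Of the B cell markers, Cd79b read 238 and 229 with MCC, 988 and 1106 with gp250 and 1078 and 1044 with Hb. Cd79a was dim, at 23.4 to 51.0 and above background on 3 of the 6 arrays, and Ms4a1 was not tested. Whether the Cd79b signal came from B cells in these Rag1-deleted mice was not tested, so its fall is not a count of B cells.

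A member was tested if its probe was above background on at least 2 of the 6 arrays, and 61 of the 87 passed. These were 2 E1, 21 E2, 37 deubiquitinase genes and Usp6nl, and 54 of them were above background on all 6 arrays. The 26 others were the E1 Uba6, the E2 genes Ube2d1, Ube2dnl2, Ube2g2, Ube2l6, Ube2r2 and Ube2v2, and the deubiquitinase genes Otud7a, Uchl1, Uchl4, Usp9y, Usp13, Usp17la, Usp17lb, Usp17lc, Usp17ld, Usp24, Usp26, Usp27x, Usp29, Usp43, Usp44, Usp46, Usp48, Usp49 and Usp50. Uba1, Uba2, Ube2m and Ube2v1 were not analysed here. Values below are normalized signals on the log2 scale, differences are log2 fold changes with their standard error, and a call is an adjusted p under 0.05 by limma with Benjamini-Hochberg adjustment over all 11942 tested probes. Each gene is read by its brightest tested probe.

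With MCC, deubiquitinase genes such as Josd1 and Usp54 rose and others such as Usp2 and Usp7 fell, and neither tested E1 gene was called. The tested E1 genes, Uba3 and Uba7, serve NEDD8 and ISG15, so the activation of ubiquitin itself was not assessed. Against Hb, 16 members rose and 11 fell, which is 44.3% of the 61 tested, beside 55.1% of all 8253 tested genes (26.2% rose and 28.8% fell). By class, 13 deubiquitinase genes rose and 9 fell, or 59.5% of 37, and 3 E2 genes rose and 1 fell, or 19% of 21. The deubiquitinase share is near that of all genes, the E2 share was 47.6% with no scaling between arrays, and the difference between the classes was not tested. Among members called, 2 rose at least 2-fold (Usp54 and Josd1) and 2 fell by a fitted change of at least 2-fold (Usp2 and Usp53), beside 8.65% and 8.99% of all genes. The arrays of MCC and Hb did not overlap for 45 of the 61 members, beside 78.4% of all genes.

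**Figure D1:**
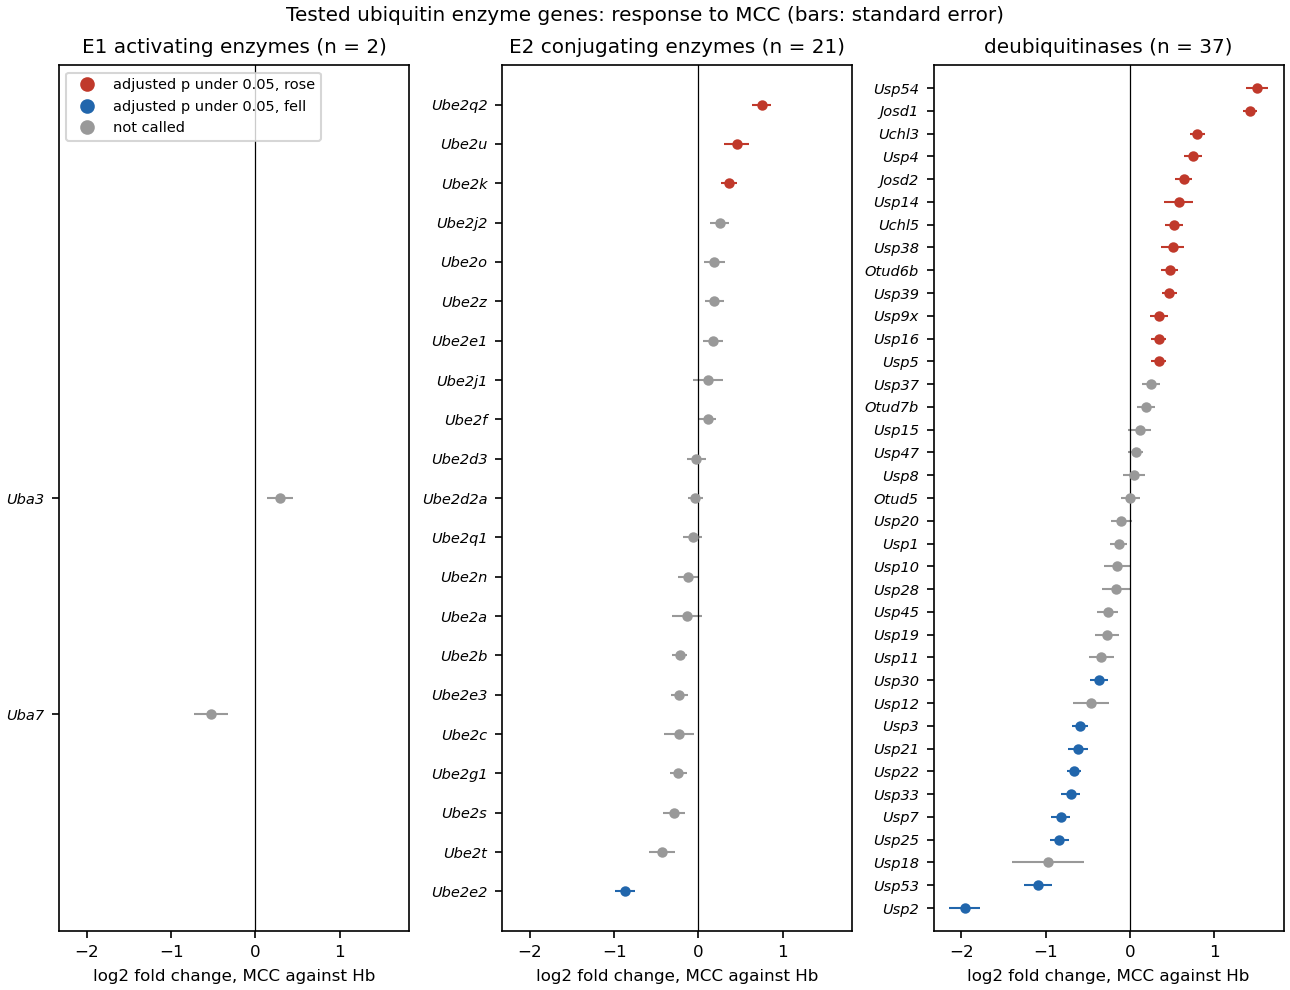
Log2 fold change with MCC against Hb for the tested E1, E2 and deubiquitinase genes, 1 gene per line, sorted within each class. Points are fitted changes from 2 arrays per ligand and bars are standard errors. Red points rose and blue points fell with an adjusted p under 0.05. Most of the 21 E2 genes lie close to 0, and the 37 deubiquitinase genes run from a fitted -1.96 (Usp2) to 1.51 (Usp54). The MCC signal of Usp2 was below background, so it is known only to be at least 2.98-fold lower.

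The upstream sequences of the strongest riser and faller, and of Josd1, which had the smallest adjusted p of all members, are shown because these 3 genes carry the extremes of the response. Each is the 250 bases before the annotated gene start in RefSeq on GRCm38.p6, read 5′ to 3′ on the gene's strand. Capitals mark the GC box GGGCGG, searched on both strands. The window of Josd1 is chr15:79687873-79688122 on the minus strand, that of Usp2 is chr9:44084670-44084919 on the plus strand and that of Usp54 is chr14:20618355-20618604 on the minus strand.
Josd1: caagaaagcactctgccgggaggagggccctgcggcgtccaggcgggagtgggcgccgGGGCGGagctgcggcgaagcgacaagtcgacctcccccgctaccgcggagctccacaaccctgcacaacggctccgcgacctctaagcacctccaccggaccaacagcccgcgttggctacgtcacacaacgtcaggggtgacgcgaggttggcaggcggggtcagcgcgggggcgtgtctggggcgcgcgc
Usp2: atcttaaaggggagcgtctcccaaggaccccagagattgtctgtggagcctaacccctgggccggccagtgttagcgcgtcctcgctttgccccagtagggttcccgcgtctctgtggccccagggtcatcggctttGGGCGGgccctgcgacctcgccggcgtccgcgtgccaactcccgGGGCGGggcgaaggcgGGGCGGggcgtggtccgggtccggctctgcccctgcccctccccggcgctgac
Usp54: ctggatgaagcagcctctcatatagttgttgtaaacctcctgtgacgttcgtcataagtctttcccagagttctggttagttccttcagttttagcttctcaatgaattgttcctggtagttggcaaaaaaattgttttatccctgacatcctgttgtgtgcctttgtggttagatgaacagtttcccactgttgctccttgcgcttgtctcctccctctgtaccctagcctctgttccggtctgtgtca
The windows of Josd1 and Usp2 were 71.6% G and C and that of Usp54 45.2%. The Josd1 window held 1 GC box, at base -192 from the start, and the Usp2 window held 3, at -113, -69 and -53. No match to any of 9 motifs was found in the Usp54 window. The other motifs were AP-1 (TGANTCA), CRE (TGACGTCA), E-box (CACGTG), EGR (GCGTGGGCG), CCAAT, ETS (CCGGAAG), NF-kappaB and the paired core of the interferon-stimulated response element, both strands each. Overlap between motifs was allowed. Over 32841 RefSeq windows of the same length, 32.7% held a GC box, 6.75% AP-1, 1.55% CRE, 6.02% the E-box, 0.536% EGR, 33.9% CCAAT, 6.91% ETS, 0.14% NF-kappaB and 2.98% the interferon-response pair. Of the 61 tested members 47 matched an entry by symbol, and 37 of the 47 held a GC box in at least 1 window. Counted by window, as in the percentages above, it was 43 of their 57 windows. Those percentages cover all RefSeq genes, whether detected here or not. The share over the tested genes was not computed. AP-1 was found in 2 of the 47, the E-box in 5, EGR in 1, CCAAT in 11 and ETS in 11, and CRE, NF-kappaB and the interferon-response pair in 0. Counted by window, AP-1 was in 2 of the 57, the E-box in 5, EGR in 1, CCAAT in 12 and ETS in 12.

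Of the activating enzymes, Uba3 is the catalytic subunit of the E1 for NEDD8. Its signal was 8.62 and 8.32 with MCC, 8.14 and 8.50 with gp250 and 8.18 on both Hb arrays. The MCC arrays lay above both Hb arrays, and 1 of them lay within the range of gp250. The difference from Hb was 0.29 ± 0.16 (adjusted p = 0.163, 95% interval -0.09 to 0.67). Uba7, the E1 for ISG15, read 10.88 and 10.24 with MCC, 11.02 and 11.10 with gp250 and 11.10 and 11.07 with Hb. Both MCC arrays were the lowest of the 6, and they were 0.64 apart from each other. The difference from Hb was -0.53 ± 0.20 (adjusted p = 0.0641). This difference was called with an intensity trend (adjusted p = 0.0032) and with an offset of 50 (-0.52, adjusted p = 0.0303). It was also called with a detection p under 0.01 required on both arrays of a ligand (adjusted p = 0.0440). Without MCC replicate 1 it was -0.85 with an adjusted p of 0.00371.

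Among the conjugating enzymes Ube2q2 had the largest rise. It read 9.44 and 9.57 with MCC, 8.77 and 9.0 with gp250 and 8.78 and 8.73 with Hb. No MCC array overlapped the others, and the rise over Hb was 0.75 ± 0.11 (1.68-fold, adjusted p = 0.00175). The other 2 probes of Ube2q2 gave 0.59 (adjusted p = 0.0188) and 0.40 (adjusted p = 0.102). Ube2k builds chains that lead to the proteasome. It read 11.02 and 11.09 with MCC, 10.50 and 10.61 with gp250 and 10.68 and 10.70 with Hb, again with no overlap. It rose by 0.36 ± 0.09 (1.29-fold, adjusted p = 0.0152), and the call was lost without MCC replicate 2 (0.34, adjusted p = 0.07), Hb replicate 1 (0.36, adjusted p = 0.0618) or Hb replicate 2 (0.37, adjusted p = 0.0565).

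Ube2u was dim and rose by 0.45 ± 0.14 over Hb (adjusted p = 0.0366). It read 6.13 and 6.09 with MCC, 6.21 and 5.86 with gp250 and 5.54 and 5.77 with Hb, where 1 of the 2 arrays was above background. The MCC arrays lay within the range of gp250, and the call was lost without MCC replicate 1 (0.43, adjusted p = 0.128), MCC replicate 2 (0.47, adjusted p = 0.103) or Hb replicate 1 (0.34, adjusted p = 0.165). With the replicate number as a block its adjusted p was 0.0564. It was 0.0699 with the authors' processed table, 0.0633 with no detection filter and 0.0679 with an intensity trend.

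Ube2e2 was the E2 gene that fell. It read 5.72 and 5.45 with MCC, below background on both arrays, against 6.82 and 6.78 with gp250 and 6.41 and 6.49 with Hb. It was at least 1.56-fold lower than with Hb (adjusted p = 0.00100) and at least 1.99-fold lower than with gp250 (adjusted p = 0.000228). Such a bound divides the brighter ligand's mean by a floor for each dim array, namely its lowest signal above background or the probe's own signal, whichever is larger. The adjusted p beside a bound, here and below, belongs to the fitted change, and the bound itself was not tested. Ube2e2, Usp2 and Usp53 passed the detection filter through their gp250 and Hb arrays alone.

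The 17 other tested E2 genes were not called, and for 14 of them the 95% interval of the change lay inside 1.5-fold either way. The same held for 2534 of the 3708 tested genes that were not called. Ube2n, which with a partner builds the signalling chains used below the T cell receptor, read 7.70 and 7.68 with MCC, 7.82 and 7.58 with gp250 and 7.69 and 7.93 with Hb, a change of -0.12 ± 0.13 (adjusted p = 0.462). Its other tested probe gave 0.16, which was not called. Ube2f, an E2 for NEDD8, read 10.58 and 10.66, 10.52 and 10.65, and 10.58 and 10.43 in the same order, a change of 0.11 ± 0.10 (adjusted p = 0.394), and its 4 probes ran from 0.06 to 0.22. For both genes the arrays of the 3 ligands overlapped at the brightest probe. Ube2d2a, a broadly used partner of many E3 ligases, read 12.83 and 12.88 with MCC, 12.95 and 12.92 with gp250 and 12.92 and 12.87 with Hb. Its change was -0.04 ± 0.09 (95% interval -0.24 to 0.17, adjusted p = 0.753) after quantile scaling and 0.36 (adjusted p = 0.0281) with no scaling between arrays. After quantile scaling its other tested probe gave 0.14, which was not called.

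A further 4 E2 genes were not called. Ube2t, which works in the Fanconi anaemia repair pathway, read 6.67 and 6.54 with MCC, 6.72 and 7.17 with gp250 and 7.02 and 7.06 with Hb (-0.43 ± 0.16, adjusted p = 0.0578). Both MCC arrays lay below the other 4. Its adjusted p was 0.0161 without gp250 replicate 1 and 0.0158 without gp250 replicate 2, with a change of -0.43 in both. Ube2s, which extends chains for the anaphase-promoting complex, read 6.47 and 6.73, 6.95 and 6.78, and 6.97 and 6.80 (-0.29 ± 0.13, adjusted p = 0.111). Ube2c, which starts those chains, was detected on 1 gp250 array and 1 Hb array and on neither MCC array, at 5.33 and 5.66, 5.71 and 5.28, and 5.68 and 5.77 (-0.23 ± 0.18, adjusted p = 0.306). Ube2g1 read 9.81 and 9.82, 9.95 and 10.09, and 10.14 and 9.96 (-0.24 ± 0.10, adjusted p = 0.0994), and 1 of its other probes fell by 0.35 (adjusted p = 0.0342).

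The deubiquitinase genes divide by the type of their catalytic domain. Both Josephin genes and both tested UCH genes rose, 1 of 3 tested OTU genes rose, and of 30 tested USP genes 8 rose and 9 fell (56.7% called), beside 26.2% of all genes that rose and 28.8% that fell. The median change was 1.03 for the Josephin genes, 0.66 for the UCH genes, 0.19 for the OTU genes and -0.16 for the USP genes, beside -0.04 over all genes.

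Josd1 encodes a small Josephin-domain protease related to ataxin-3. It read 11.16 on both MCC arrays, 9.87 on both gp250 arrays and 9.78 and 9.70 with Hb. The other 4 arrays lay far below MCC, and the rise over Hb was 1.42 ± 0.09 (2.68-fold, adjusted p = 3.8e-05). Josd2, its close relative, read 9.95 and 9.83 with MCC, 9.36 and 9.34 with gp250 and 9.18 and 9.33 with Hb. It rose by 0.64 ± 0.10 (1.55-fold, adjusted p = 0.00215), with no overlap.

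Uchl3 trims small adducts from the tail of ubiquitin and of NEDD8. Its signal was 10.13 and 10.15 with MCC, 9.26 and 9.23 with gp250 and 9.33 and 9.35 with Hb. The 2 arrays of a ligand were at most 0.04 apart, and the rise over Hb was 0.80 ± 0.08 (1.74-fold, adjusted p = 0.000386).

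Uchl5 and Usp14 encode the cysteine proteases that dock on the proteasome. Uchl5 read 9.85 and 9.74 with MCC, 9.30 and 9.10 with gp250 and 9.33 and 9.22 with Hb, and rose by 0.52 ± 0.11 (1.43-fold, adjusted p = 0.00752). A further probe gave 0.55 (adjusted p = 0.0036), and the remaining one 0.23 (adjusted p = 0.127). Usp14 read 7.63 and 7.19 with MCC, 6.77 and 7.05 with gp250 and 6.76 and 6.90 with Hb. Its MCC arrays were the highest but 0.44 apart, and the rise was 0.58 ± 0.17 (1.49-fold, adjusted p = 0.0289). With no detection filter the adjusted p was 0.0528. The call was lost without MCC replicate 1 (0.36, adjusted p = 0.131), Hb replicate 1 (0.51, adjusted p = 0.116) or Hb replicate 2 (0.65, adjusted p = 0.0668). The proteasome's built-in metalloprotease Psmd14, outside the symbol rule, rose by 0.92 ± 0.10 (adjusted p = 0.000405).

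Usp54 had the largest rise of all members. It read 7.78 and 7.55 with MCC, 6.22 and 5.98 with gp250 and 6.22 and 6.10 with Hb, so that every MCC array was more than 1 log2 unit above every other array. The rise over Hb was 1.51 ± 0.13 (2.84-fold, adjusted p = 0.000162). Usp4, which acts on signalling adaptors and on a TGF-beta receptor, read 10.50 and 10.35 with MCC, 9.75 and 9.92 with gp250 and 9.71 and 9.65 with Hb. It rose by 0.74 ± 0.11 (1.67-fold, adjusted p = 0.00144) at its brighter probe and gave 0.25 (adjusted p = 0.192) at the other.

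Smaller rises were called for 5 further USP genes. Usp39, a spliceosome protein without protease activity, read 10.50 and 10.49 with MCC, 9.93 and 10.04 with gp250 and 10.02 and 10.03 with Hb, a rise of 0.47 ± 0.09 (adjusted p = 0.00475). All 4 of its probes rose, by 0.33 to 0.61. Usp38 read 8.92 and 8.70, 8.37 and 8.55, and 8.44 and 8.17 in the same order, and rose by 0.51 ± 0.14 (adjusted p = 0.0205). Its call was lost without MCC replicate 1 (0.40, adjusted p = 0.107) or Hb replicate 2 (0.37, adjusted p = 0.102), and its other tested probe rose by 0.69 (adjusted p = 0.0023).

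Usp5, which takes apart free ubiquitin chains, read 7.72 and 7.75 with MCC, 7.27 and 7.24 with gp250 and 7.44 and 7.36 with Hb, a rise of 0.34 ± 0.09 (adjusted p = 0.0166). With an intensity trend its adjusted p was 0.051. Usp16, a histone deubiquitinase, read 9.80 and 9.75, 9.44 and 9.40, and 9.40 and 9.47, a rise of 0.34 ± 0.09 (adjusted p = 0.0168). Usp9x, which stabilizes the survival protein MCL1 among other targets, read 6.17 and 6.20, 5.47 and 5.70, and 5.87 and 5.81, a rise of 0.34 ± 0.11 (adjusted p = 0.0360). Its call was lost with no background correction (adjusted p = 0.0545) and with an offset of 50 (adjusted p = 0.0602). The authors' processed table gave 0.28 (adjusted p = 0.0953). With no detection filter the adjusted p was 0.0556, and with an intensity trend 0.151. For these 3 genes no MCC array overlapped another ligand, and each call was lost when 1 of several arrays was left out. Usp5 had an adjusted p of 0.0581 without MCC replicate 1, 0.0723 without MCC replicate 2 and 0.0788 without Hb replicate 2. For Usp16 it was 0.0799 without MCC replicate 1, 0.0532 without MCC replicate 2 and 0.0757 without Hb replicate 1. For Usp9x it was 0.101 and 0.121 without MCC replicates 1 and 2 and 0.0838 and 0.133 without Hb replicates 1 and 2, and 0.0511 with the replicate number as a block.

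In the OTU family Otud6b rose over Hb. It read 7.10 and 7.26 with MCC, 7.04 and 7.01 with gp250 and 6.65 and 6.77 with Hb, with gp250 between the others, a rise of 0.47 ± 0.10 (adjusted p = 0.00781). Otud7b, which acts on the kinase Zap70 in T cells, read 7.69 and 7.56, 7.64 and 7.45, and 7.42 and 7.46 (0.19 ± 0.11, adjusted p = 0.179). Otud5 read 11.21 and 10.99, 11.10 and 11.01, and 11.03 and 11.16, with full overlap (0.01 ± 0.11, adjusted p = 0.969).

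**Figure D2:**
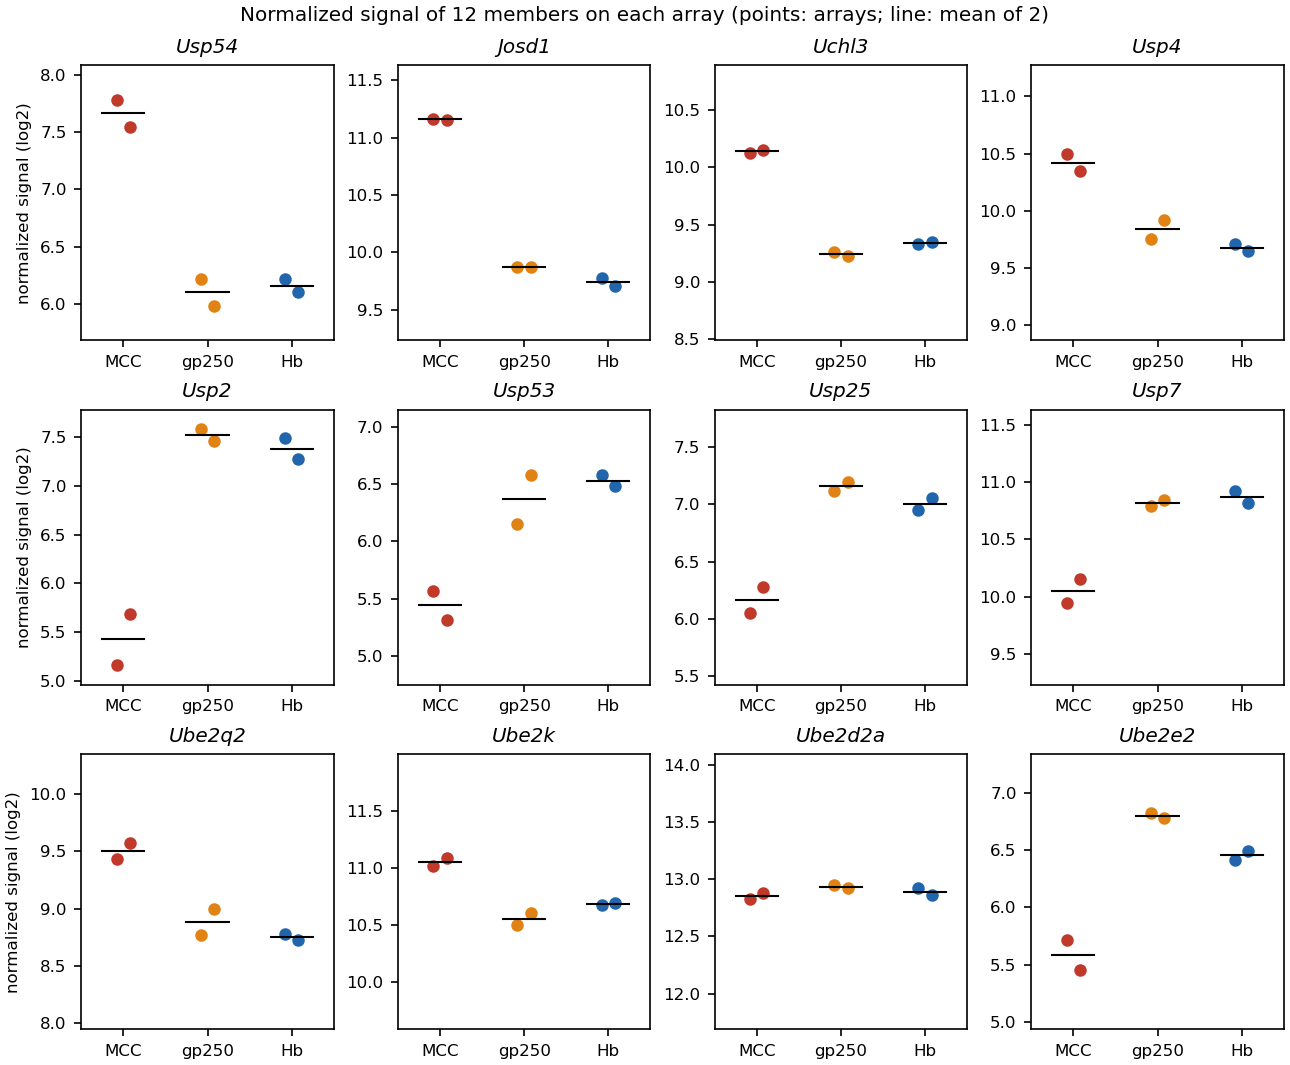
Normalized log2 signal of 12 members on each of the 6 arrays, grouped by ligand. Points are arrays and lines are the mean of 2, and each panel has its own range of levels. MCC stands above both other ligands for Usp54, Josd1, Uchl3, Usp4, Ube2q2 and Ube2k and below them for Usp2, Usp53, Usp25, Usp7 and Ube2e2, while Ube2d2a stays between 12.83 and 12.95.

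Usp2 fell the most. Its protein acts in the circadian clock and on cyclin D1. The deposited intensity was 12.1 and 39.0 with MCC, 154 and 153 with gp250 and 159 and 132 with Hb, and the probe was not above background on either MCC array. It was at least 2.98-fold lower with MCC than with Hb (adjusted p = 0.000232) and at least 3.28-fold lower than with gp250 (adjusted p = 0.000169). Usp53, whose protein lies at tight junctions, was also below background on both MCC arrays. Its normalized signal was 5.56 and 5.32 with MCC, 6.15 and 6.58 with gp250 and 6.58 and 6.48 with Hb, at least 1.65-fold lower than with Hb (adjusted p = 0.0018).

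Usp25 and Usp7 fell by close amounts while staying above background. Usp25 read 6.05 and 6.28 with MCC, 7.12 and 7.20 with gp250 and 6.95 and 7.06 with Hb, a change of -0.84 ± 0.11 (1.79-fold lower, adjusted p = 0.00103). Usp7, which controls the p53 ligase Mdm2, read 9.94 and 10.15, 10.79 and 10.85, and 10.92 and 10.82, a change of -0.82 ± 0.11 (1.77-fold lower, adjusted p = 0.000995). Neither gene's MCC arrays overlapped the other 4. Mdm2 itself, in the list of E3 ligases, also fell (-0.66 ± 0.09, adjusted p = 0.00124) and is named after its value was seen.

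Usp33, which handles receptor recycling, read 10.12 and 10.30 with MCC, 10.93 and 10.92 with gp250 and 11.02 and 10.81 with Hb, a change of -0.70 ± 0.11 (1.63-fold lower, adjusted p = 0.00246). Of the histone deubiquitinases, Usp22, the ubiquitin protease of the SAGA coactivator, read 9.89 and 9.96, 10.65 and 10.60, and 10.59 on both Hb arrays, a change of -0.66 ± 0.09 (1.59-fold lower, adjusted p = 0.000982). Usp21 read 7.81 and 7.69, 8.26 and 8.15, and 8.25 and 8.50, a change of -0.62 ± 0.12 (1.54-fold lower, adjusted p = 0.0049). Usp3 read 11.02 and 11.05, 11.63 and 11.51, and 11.66 and 11.60, a change of -0.59 ± 0.09 (1.51-fold lower, adjusted p = 0.00203). The MCC arrays were the lowest in all 4 genes. With no scaling between arrays the change of Usp3 was -0.29 (adjusted p = 0.0571).

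Usp30, found on the outer mitochondrial membrane, read 6.66 and 6.63 with MCC, 6.95 and 6.75 with gp250 and 7.06 and 6.98 with Hb. The change was -0.37 ± 0.10 (adjusted p = 0.0230). The call was lost with scaling to a common median (-0.30, adjusted p = 0.0583) and with an intensity trend (adjusted p = 0.0689). Leaving out MCC replicate 1, MCC replicate 2, Hb replicate 1 or Hb replicate 2 gave adjusted p-values of 0.0733, 0.0926, 0.0986 and 0.0555, and with no scaling between arrays the change was -0.16 (adjusted p = 0.264). Usp6nl, which is not a deubiquitinase, read 7.97 and 7.88, 8.21 on both gp250 arrays, and 8.20 and 8.48 (-0.41 ± 0.12, adjusted p = 0.0233). Scaling to a common median gave -0.29 (adjusted p = 0.09). Its call was lost without MCC replicate 1 (-0.46, adjusted p = 0.0576), MCC replicate 2 (-0.37, adjusted p = 0.104) or Hb replicate 2 (-0.28, adjusted p = 0.110), at its other tested probe (-0.19, adjusted p = 0.274), and with no scaling between arrays (-0.15, adjusted p = 0.349).

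Several deubiquitinases with known parts in T cells or DNA repair were not called against Hb. Usp8, an endosomal protease needed for thymocyte maturation, read 6.13 and 6.32 with MCC, 5.82 and 5.98 with gp250 and 6.31 and 6.05 with Hb (0.05 ± 0.13, adjusted p = 0.788). Its other tested probe gave 0.46, which was not called. Usp15, which acts on Mdm2 in T cells, read 5.97 and 6.28, 5.96 and 6.14, and 5.94 and 6.08 (0.11 ± 0.14, adjusted p = 0.517). Usp1, which acts on the repair proteins FANCD2 and PCNA, read 9.34 and 9.49, 9.74 and 9.77, and 9.48 and 9.61 (-0.13 ± 0.10, adjusted p = 0.296). Its other tested probes gave -0.53 (adjusted p = 0.126) and -0.52 (adjusted p = 0.0901). At the brightest probe MCC overlapped Hb for all 3 genes. Usp10, a protease of p53, gave results that differed by probe. Its brightest probe read 6.95 and 6.52 with MCC, 6.93 and 7.17 with gp250 and 6.85 and 6.92 with Hb (-0.15 ± 0.16, adjusted p = 0.473), while the other 2 probes rose, by 0.64 (adjusted p = 0.0308) and 0.85 (adjusted p = 0.0054).

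Usp18, the protease that removes ISG15, had the widest spread of the deubiquitinases. It read 9.31 and 8.06 with MCC, 9.68 and 10.29 with gp250 and 9.92 and 9.39 with Hb. Both MCC arrays were the lowest, but 1.26 apart. The change was -0.97 ± 0.43 against Hb (adjusted p = 0.0991) and -1.30 ± 0.43 against gp250 (adjusted p = 0.0404). With no scaling between arrays the change against gp250 was -0.97 (adjusted p = 0.0763). Its adjusted p was 0.053 with no background correction and 0.078 with no detection filter. With an intensity trend the change of -0.97 against Hb was called (adjusted p = 0.0076). The 3 probes of Usp18 gave -1.02 to -0.75 against Hb. Without MCC replicate 1 the change against Hb was -1.59 (adjusted p = 0.0133). The call against gp250 was lost without MCC replicate 2 (-0.67, adjusted p = 0.149), gp250 replicate 1 (-1.60, adjusted p = 0.0557), gp250 replicate 2 (-0.99, adjusted p = 0.174), Hb replicate 1 (adjusted p = 0.0512) or Hb replicate 2 (adjusted p = 0.0519).

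Isg15 itself, an interferon-induced modifier outside the symbol rule, read 10.42 and 9.08 with MCC, 8.90 and 9.29 with gp250 and 9.07 and 8.54 with Hb. The first MCC array stood apart and the second lay within the range of the other ligands. The change against Hb was 0.94 ± 0.43 (adjusted p = 0.107). In Isg15, Uba7 and Usp18 alike, MCC replicate 1 was above MCC replicate 2. Ube2l6, the E2 of this modifier, was too dim to test.

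**Figure D3:**
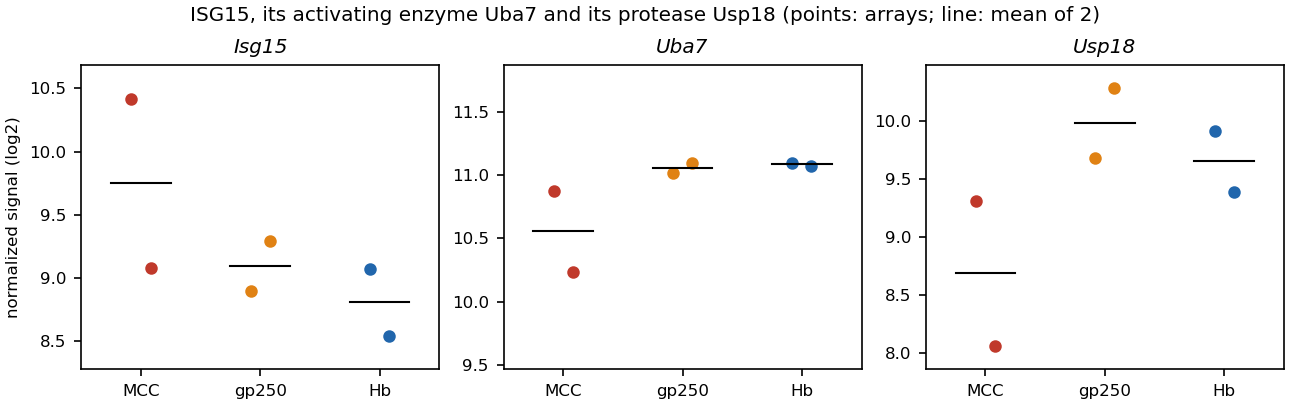
Normalized log2 signal of Isg15, its activating enzyme Uba7 and its protease Usp18 on each array, by ligand. Points are arrays and lines are means of 2. The 2 MCC arrays are 1.26 apart for Usp18 and 0.64 apart for Uba7. Neither gene passed the test against Hb in the main fit, and both did with an intensity trend.

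The comparison of MCC with gp250 asks whether the same genes separate the negative from the positive selection ligand. It shares the MCC arrays with the comparison above. Against gp250, 14 members rose and 12 fell, or 42.6% of 61, beside 55.9% of all genes (26.3% rose and 29.6% fell). In this comparison 2 E2 genes rose and 1 fell, and 12 deubiquitinase genes rose and 11 fell. Josd1 rose by 1.29 ± 0.09 (2.45-fold, adjusted p = 5.61e-05), Usp54 by 1.56 ± 0.13 (2.95-fold, adjusted p = 0.000136) and Uchl3 by 0.90 ± 0.08 (1.86-fold, adjusted p = 0.000232). Usp25 changed by -0.99 ± 0.11 (1.99-fold lower, adjusted p = 0.000486).

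Called against gp250 alone were Usp37, Usp20, Usp1 and Usp18. Usp37 rose by 0.47 ± 0.11 (adjusted p = 0.00976) and, without MCC replicate 2, by 0.35 (adjusted p = 0.0517). Usp20, a close relative of Usp33, fell by 0.39 ± 0.13 (adjusted p = 0.0379), a call lost without MCC replicate 1 (-0.30, adjusted p = 0.174), MCC replicate 2 (-0.48, adjusted p = 0.0559) or gp250 replicate 2 (-0.30, adjusted p = 0.163), with a common median (-0.25, adjusted p = 0.163) and with no scaling between arrays (-0.07, adjusted p = 0.679). Usp1 fell by 0.34 ± 0.10 (adjusted p = 0.0274), a call lost without MCC replicate 1 (-0.26, adjusted p = 0.136), gp250 replicate 1 (-0.35, adjusted p = 0.0792) or gp250 replicate 2 (-0.33, adjusted p = 0.0956), at its second brightest probe (-0.15, adjusted p = 0.653), with a common median (-0.18, adjusted p = 0.208) and with no scaling between arrays (-0.01, adjusted p = 0.960). Called against Hb alone were Otud6b, Ube2u, Usp38, Usp30 and Usp6nl, whose changes against gp250 were 0.15, 0.08, 0.35, -0.20 and -0.29. The other tested probe of Usp38 rose against gp250, by 0.60 (adjusted p = 0.0043), and its brighter probe was called under 5 of the alternatives, at 0.33 to 0.67. Whether the change differs between these comparisons is the comparison of gp250 with Hb, in which none of these 9 genes was called.

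Setting gp250 against Hb addresses whether a positively selecting ligand differs from a non-selecting one in these enzymes. With limma 0 of the 61 members were called, and 0 of 8253 genes (0% of all genes). The smallest adjusted p of a member was 0.716. Before adjustment 3 members had a p under 0.05, beside 6.22% of all genes. The median size of the change was 0.10 over the members, against 0.34 with MCC, and 0.09 over all genes. For 60 of the 61 the 95% interval lay inside 2-fold either way, with Usp18 as the exception (-0.71 to 1.36). It lay inside 1.5-fold for 54 of the 61, beside 6760 of all 8253 tested genes.

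The 5 members with the smallest p in this comparison were Otud6b, Ube2e2, Ube2u, Usp9x and Usp20. Otud6b was higher with gp250 by 0.32 ± 0.10 (adjusted p = 0.716), Ube2e2 by 0.35 ± 0.11 (adjusted p = 0.729) and Ube2u by 0.38 ± 0.14 (adjusted p = 0.741). Usp9x was at -0.26 ± 0.11 (adjusted p = 0.770), with 1 of its 2 gp250 arrays below background. Usp20, which read 8.64 and 8.82 with MCC, 9.02 and 9.22 with gp250 and 8.73 and 8.94 with Hb, was at 0.29 ± 0.13 (adjusted p = 0.773). The first 3 are those with an unadjusted p under 0.05.

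**Figure D4:**
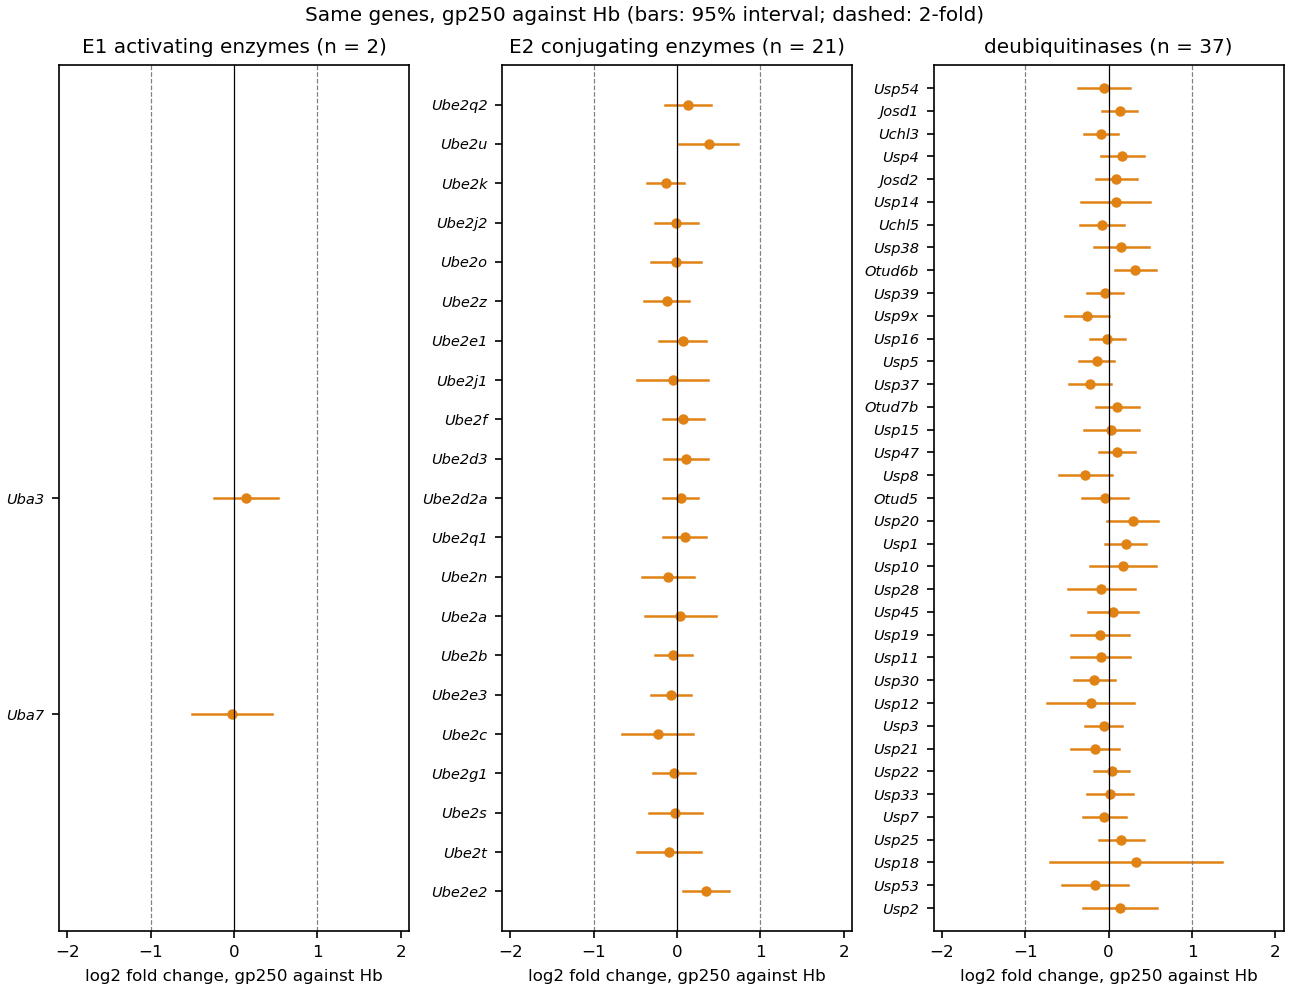
Log2 fold change with gp250 against Hb for the same genes in the same order as in the plot for MCC. Points are fitted changes from 2 arrays per ligand, bars are 95% intervals and dashed lines mark 2-fold. All intervals stay between the dashed lines except that of Usp18.

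By class, the median change with MCC against Hb was near 0 in each of the larger classes, at -0.04 for E2 genes, 0.01 for deubiquitinase genes and -0.04 for all genes. The median size of the change regardless of sign was 0.22 for E2, 0.47 for deubiquitinase and 0.41 for all genes. The median standard error was 0.11 in each of these 3 sets. The share called depended on the scaling of the arrays for E2 genes. It was 19% with quantile scaling, 28.6% with scaling to a common median and 47.6% with no scaling. For deubiquitinase genes it was 59.5%, 56.8% and 62.2%, and for all genes 55.1%, 53.6% and 56.2%. The median change over all genes was -0.04 with quantile scaling, 0.07 with a common median and 0.21 with no scaling, so it moved up by 0.11 and 0.25. The share of rises among member calls was 59.3% with quantile scaling, 66.7% with a common median and 76.5% with none.

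**Figure D5:**
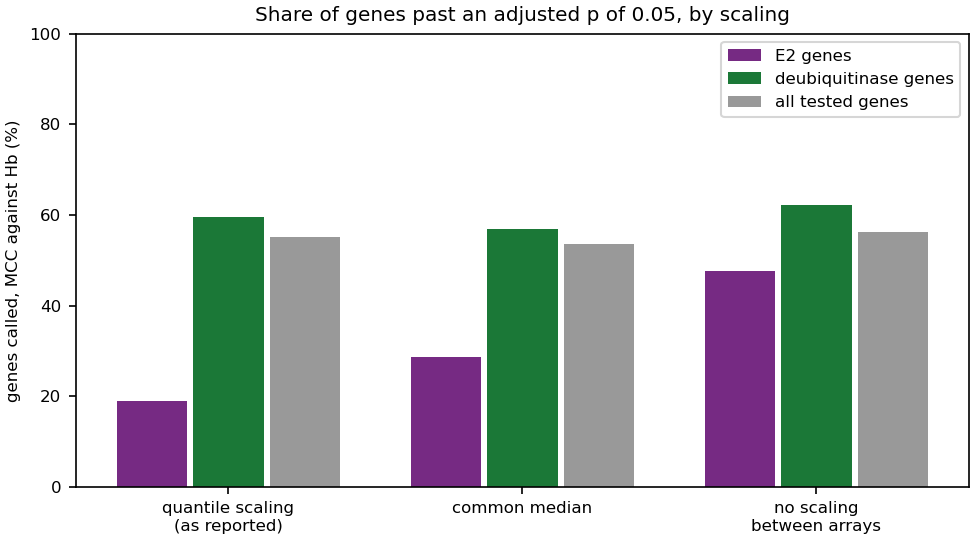
Percent of tested E2 genes (21), deubiquitinase genes (37) and all tested genes (8253) with an adjusted p under 0.05 for MCC against Hb, under 3 ways of scaling the arrays. Bars start at 0 and carry no error. The E2 share moves from 19% to 47.6% as the scaling is relaxed, while the deubiquitinase share stays between 56.8% and 62.2%.

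Other genes of the pathway were read from lists. Of 45 tested E3 ligases 5 rose and 16 fell (46.7% called, beside 55.1% of all genes, of which 26.2% rose and 28.8% fell). The largest fitted changes were in Nedd4l (-1.79 ± 0.11, adjusted p = 3.93e-05), Uhrf1, which maintains DNA methylation (-1.28 ± 0.13, adjusted p = 0.000361), Nedd4, below background with MCC and so known only to be at least 1.84-fold lower (adjusted p = 0.000123), and Traf2 (-1.11 ± 0.13, adjusted p = 0.000644). Siah2 rose by 1.04 ± 0.09 (adjusted p = 0.000169) and Syvn1, the ligase of endoplasmic reticulum quality control, by 0.82 ± 0.11 (adjusted p = 0.000935); both were chosen after their values were seen. Of 18 tested deubiquitinases outside the symbol rule 4 rose and 5 fell (50% called, beside 55.1%), among them Otulin, which cuts linear chains (0.81 ± 0.09, adjusted p = 0.000405), Mpnd (-0.69 ± 0.10, adjusted p = 0.00181) and the COP9 signalosome protease Cops5 (0.57 ± 0.09, adjusted p = 0.00181).

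Of 13 tested genes of the anaphase-promoting complex and its mitotic partners 6 fell and 0 rose (46.2% called, beside 55.1% of all genes), with Cdc23 at -0.57 ± 0.10 (adjusted p = 0.00415) and Anapc5 at -0.53 ± 0.09 (adjusted p = 0.00282). Of 7 tested ubiquitin-like modifiers 2 were called (28.6%): Sumo3 rose (0.60 ± 0.21, adjusted p = 0.0479) and Atg12, of autophagy, fell (-0.69 ± 0.10, adjusted p = 0.00171). Of 15 tested enzymes that handle such modifiers 4 rose and 2 fell (40% called, beside 55.1%), with the SUMO proteases Senp7 at -1.44 ± 0.09 (adjusted p = 3.67e-05) and Senp3 at 0.55 ± 0.10 (adjusted p = 0.00433). The median change was -0.23 for the E3 ligases, -0.16 for the other deubiquitinases, -0.24 for the anaphase-promoting group, -0.09 for the modifiers and 0.13 for their enzymes, beside -0.04 over all genes. With gp250 against Hb, limma called 0 genes in each of these lists, as in the whole table.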

How the data were processed

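Messenger RNA was measured on 6 1-colour Illumina mouse arrays. The deposited table holds, per the file headers, 2 columns per array, an intensity before normalization and its detection p-value. The intensity goes below 0, so a background had already been subtracted. A processed table of the authors holds the same intensity times 1 factor per array (0.825 to 1.13), which gives every array a mean of 505 and medians of 17.9 to 21.6. It is linear and not centred, and served as an alternative. The sources used here do not give the scanner software. Gene names came from GEO's platform annotation (23978 of 25697 probes with 1 symbol, 1719 with none), and 23962 probes matched the RefSeq gene table of GRCm38.p6.

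Background was corrected by normexp in limma 3.58.1 (R 4.3.3), with its parameters estimated through the detection p-values and an offset of 16, followed by quantile normalization and log2. The offset pulls dim probes towards 0. Probes with a detection p under 0.05 on at least 2 of 6 arrays were tested, 11942 in all, for 8253 genes. The linear model had a mean for each ligand and used all 6 arrays (3 residual degrees of freedom, eBayes without trend) with p-values adjusted by Benjamini-Hochberg within each comparison. A gene is read by its brightest probe, and of 20 members with several tested probes 14 had the same call at all of them, 6 had not, and 0 had opposite calls. Ligands and replicate numbers came from the sample titles. Same-numbered arrays did not deviate together (correlations of 0.02, -0.00 and -0.02).

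The members, lists and tests were chosen with earlier results of these data known. Named with values were every tested E1, the 8 largest called rises and falls among E2 genes and among deubiquitinase genes, the 5 smallest p-values for gp250 against Hb, a set of members picked by role, and up to 4 called genes per list. On simulated data for MCC against Hb with 11942 probes, the fit found none (0%) of 50 probes changed 1.25-fold. It found 30% of those changed 1.5-fold, 62% of those changed 2-fold and 90% of those changed 4-fold. It called 4 of 11742 unchanged probes. In the arrays themselves 55.1% of the 8253 tested genes were called for MCC against Hb. Usp5, Usp16 and Usp9x were called there at a 1.27-fold rise. Recovery with as large a share of changed probes as in the arrays was not tested.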

Additional observations from a re-analysis of the deposited data

How the results depend on the processing

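Of the 27 members called for MCC against Hb, 14 kept their call under all 17 alternatives run, as far as each tested them, and 13 lost it in at least 1. With no scaling between arrays 26 members rose against Hb and 26 rose and 6 fell against gp250, 1 E1 gene (Uba3) and 9 E2 genes rose, and Ube2d2a reached 0.36 against Hb and 0.38 against gp250 while Usp47 reached 0.34 against gp250, each with its sign turned from a change near 0; without scaling the median of all genes also moved up, by 0.25. With a common median 5 E2 genes rose. For Usp10 the second brightest probe gave 0.64 against Hb and 1.07 against gp250. The number of E2 genes that fell was 2 with an offset of 50, with the authors' table, with the stricter detection filter and with the second brightest probe, and 3 with an intensity trend. 1 E1 gene (Uba7) fell with an offset of 50, with the stricter filter and with the trend. Leaving out 1 array gave 10 to 16 rises and 9 to 14 falls against Hb (E1 falls 0 to 1, E2 rises 1 to 3 and falls 1 to 2, deubiquitinase rises 8 to 13 and falls 8 to 11) and 12 to 14 rises and 9 to 13 falls against gp250, and for gp250 against Hb limma called 0 members in each. The lowest count of rises, 10, came without MCC replicate 1, and Usp11 and Usp12 gained a call without either gp250 array. With the replicate number as a block, 14 members rose and 11 fell against Hb, and 13 rose and 12 fell against gp250; Ube2u and Usp9x lost their calls against Hb and Usp14 its call against gp250. The cause of these changes was not tested. With 2 arrays per ligand, a member that was not called may still differ, by as much as its 95% interval allows. Signals near background limit Usp2, Usp53, Ube2e2, Usp12, Ube2c, Usp9x and Ube2u, and array signals do not measure protein or enzyme activity.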
